A study of Mus musculus with 4 samples.

Results

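Apoe, C1qa, C1qb, C1qc, Trem2, Spp1, Gpnmb, Arg1, Mrc1 and Hmox1, genes often used to describe tumour macrophages, were followed across the cell classes of mouse prostate tumours. They were chosen by symbol and are 10 of the 32285 genes in the files, and none was missing. Single cells of tumours of 2 genotypes were sequenced from 3′ transcript ends in droplets, giving 2 libraries labelled DKO and 2 labelled TKO. All animals carried the Nkx3.1CreERT2 driver, a tamoxifen-inducible Cre of prostate epithelium, with floxed Smad4 (Smad4L/L) among the alleles that both groups share. The TKO label adds floxed Pygo2 (Pygo2L/L), and the comparison asks what that allele changes in the tumour. Because the driver acts in epithelium, the macrophages and other immune cells of both groups are not the cells in which the alleles are meant to recombine. Tumours were collected 10 or 17 weeks after tamoxifen, but which library belongs to which time is not given in the sources used here, nor are ages and the number of animals per library. Nothing in the labels shows that 2 libraries of 1 genotype are 2 animals. The p-values therefore describe the spread between libraries, which may be technical.

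Tumour macrophages arise from tissue-resident cells and from blood monocytes that enter the tumour and lose their monocyte genes as they mature. C1qa, C1qb and C1qc encode the chains of C1q, which opens the classical complement pathway, and mature macrophages are a main source of it. Apolipoprotein E, encoded by Apoe, carries lipids and is a ligand of TREM2, the lipid-sensing receptor encoded by Trem2. Spp1 encodes the secreted matrix protein osteopontin and Gpnmb a membrane glycoprotein of lysosome-rich cells. Arginase 1 (Arg1) breaks down arginine, the mannose receptor (Mrc1) takes up glycoproteins, and haem oxygenase 1 (Hmox1) degrades haem.

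Promoter sequences were available from RefSeq (build GRCm38.p6) for 7 of the 10 genes: Apoe, C1qb, C1qc, Trem2, Spp1, Gpnmb and Mrc1. The C1q genes lie side by side on the minus strand of mouse chromosome 4 (mm10): C1qb at 136880129 to 136886187, C1qc at 136889804 to 136893065 and C1qa at 136895917 to 136898803. C1qb and C1qc are shown because their UMIs tracked each other from cell to cell, Trem2 because its promoter holds the same letters, and Spp1 because neutrophils of every library carried it. Capitals mark GCTGAC or, on the other strand, GTCAGC, a core of sites of MAF family factors. In Spp1 they mark GAGGAAG, a core of PU.1 sites. The C1qc line is a stretch of 30 bases, because its RefSeq window overlaps an annotated 5′ untranslated region. Its marked letters lie 128 bases upstream of the RefSeq start used, but inside the C1qc span given above. Sequences read 5′ to 3′ on the gene's strand.
C1qb, chr4:136886201-136886450: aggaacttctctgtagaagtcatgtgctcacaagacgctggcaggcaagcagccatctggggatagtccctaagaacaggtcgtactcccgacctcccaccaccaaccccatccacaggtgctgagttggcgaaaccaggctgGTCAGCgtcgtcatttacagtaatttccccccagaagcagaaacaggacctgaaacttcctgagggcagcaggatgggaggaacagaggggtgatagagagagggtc
C1qc, chr4:136893025-136893054: gatatcactgtgGTCAGCctggatcagaac
Trem2, chr17:48346151-48346400: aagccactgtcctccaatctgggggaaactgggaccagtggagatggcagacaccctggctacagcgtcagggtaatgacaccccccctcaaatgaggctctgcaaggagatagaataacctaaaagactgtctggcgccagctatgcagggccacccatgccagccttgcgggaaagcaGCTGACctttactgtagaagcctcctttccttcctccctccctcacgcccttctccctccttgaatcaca
Spp1, chr5:104434861-104435110: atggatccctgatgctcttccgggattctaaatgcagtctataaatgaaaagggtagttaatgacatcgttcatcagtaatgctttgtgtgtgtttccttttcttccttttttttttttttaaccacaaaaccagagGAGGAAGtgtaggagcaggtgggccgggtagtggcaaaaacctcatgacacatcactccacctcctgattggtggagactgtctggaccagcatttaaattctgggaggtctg

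Over the 250 bases upstream of each RefSeq start and on both strands, GCTGAC was found in C1qb, C1qc and Trem2 and in no window of Apoe, Spp1, Gpnmb or Mrc1. The same letters occur in 12.91% of 32851 promoter windows. GAGGAAG was found in C1qc, Trem2, Spp1 and Mrc1, and in 10.61% of all windows. The AP-1 site TGACTCA (4.46% of windows) and the E-box CACGTG (6.02%) were in none of these members' windows. A match is a description of the letters only.

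The 4 libraries held 3508 barcodes, none shared between libraries, and 3381 cells were kept. Each library kept 617 to 1208 cells, and held 9167770 to 18360201 UMIs (unique molecular identifiers, 1 per captured transcript end). Pygo2, whose allele separates the groups, gave 6 and 27 UMIs in epithelial cells of the DKO libraries and 20 and 1 in those labelled TKO. Where the 3′ tag lies relative to the deleted part is not known here. The count therefore checks neither the deletion nor the label, and groups are those of the labels. In what follows, sets of 4 values are given in the order DKO replicate 1, DKO replicate 2, TKO replicate 1, TKO replicate 2.

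Cells were assigned by sums of marker UMIs. C1q macrophages needed at least 10 UMIs of C1qa, C1qb and C1qc together and at least 10 of other macrophage markers such as Csf1r and Ms4a7. This gave 14, 12, 21 and 10 C1q macrophages (57 in all), 101 monocytes, 203 dendritic cells, 1248 neutrophils and 251 non-immune cells (epithelial cells, fibroblasts and a few vascular cells). A further 971 lymphoid and mast cells served as a reference class, and 352 cells met no minimum. Whether UMIs of the 10 genes in the reference class are background was not tested. Cells that met the macrophage or the dendritic minimums were not counted as monocytes or neutrophils: 39 of the 57 macrophages also had at least 20 monocyte marker UMIs and 5 at least 50 neutrophil marker UMIs. Of the other overlaps 198 cells were left out. All 13 macrophage markers were detected in the macrophages of every library, summing to 6699, 16637, 12015 and 6808 CPM (UMIs of the gene per 1000000 UMIs of the class), against 1444 to 2414 in monocytes. The pan-leukocyte gene Ptprc stood at 372 to 471 CPM in macrophages and at 3.78 to 15.4 in non-immune cells. Markers of other cells were also present in the macrophages. The monocyte list summed to 6917, 1936, 3174 and 5112 CPM, against 6094, 7029, 7290 and 7132 in monocytes. In DKO replicate 1 the macrophages were thus above the monocytes on the monocyte list. The dendritic list, which holds the shared MHC class II genes, summed to 18328 to 31002 CPM, against 41986 to 43325 in dendritic cells. The neutrophil list stood at 2772 CPM in DKO replicate 2, where 1 macrophage held 913 of its 1058 UMIs, and at 539 to 674 in the other libraries. Median depth per macrophage was 34172, 33979, 24443 and 19021 UMIs, against 6304 to 7269 in neutrophils, so shares of positive cells are read beside CPM and beside shares after thinning each cell to 2000 UMIs.

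**Figure D1:**
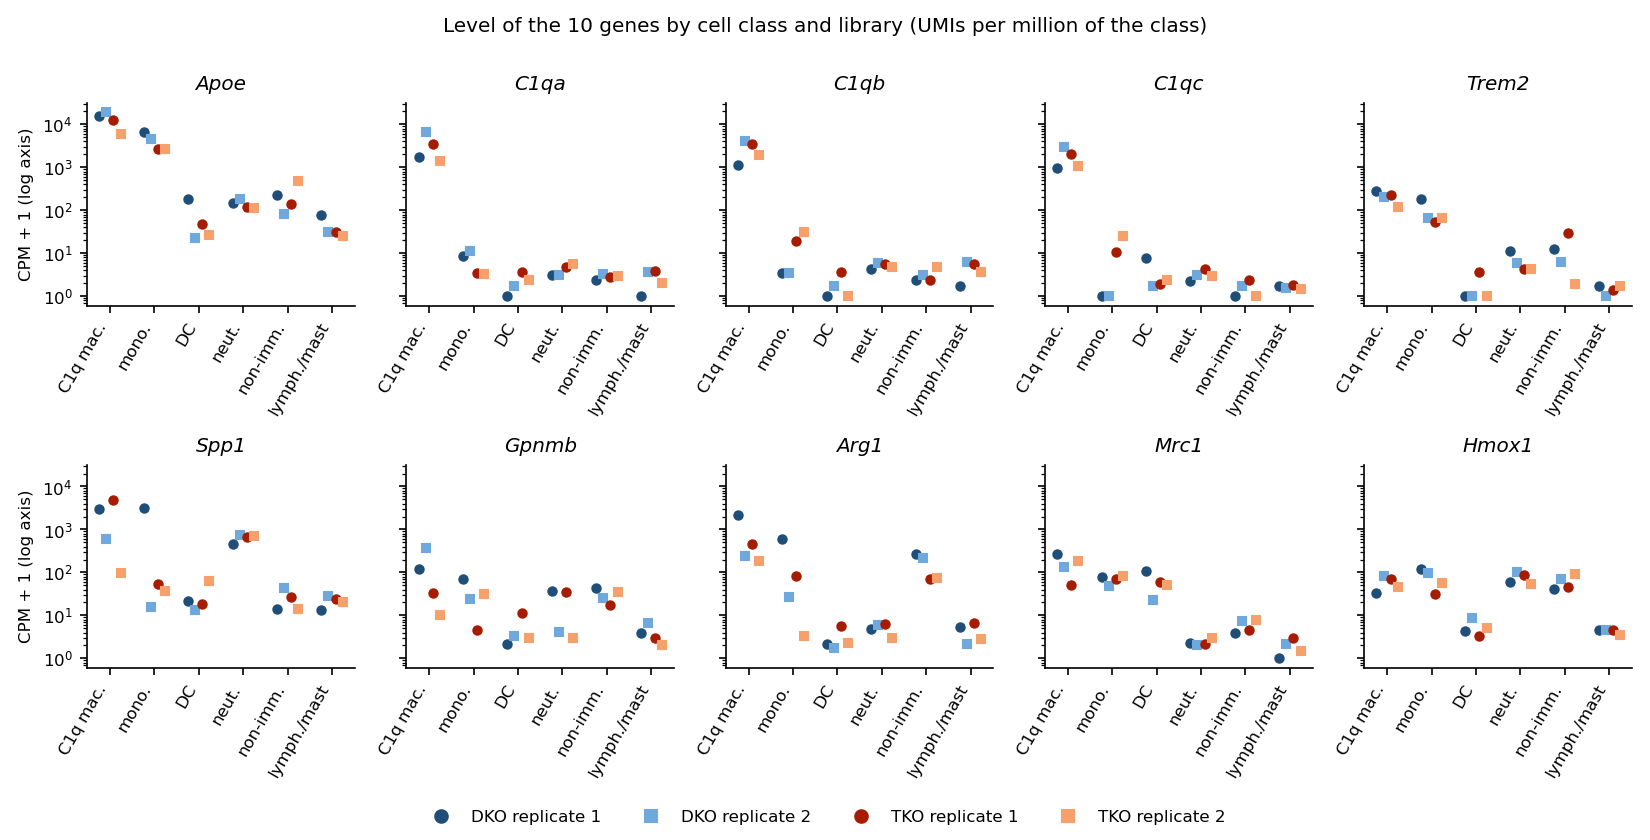
Level of each gene as CPM + 1 on a log axis, with 1 point per library, in the 5 classes and in lymphoid and mast cells. The C1q genes fall from at least 950 CPM in macrophages to at most 30.8 CPM in any library of the other classes, Apoe and Trem2 step down through monocytes, Spp1 is high in neutrophils of all 4 libraries, and Hmox1 is at similar levels in macrophages, monocytes, neutrophils and non-immune cells.

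The complement genes define the class, so their levels are a description. C1qa stood at 1713, 6796, 3456 and 1373 CPM in macrophages, C1qb at 1129, 4006, 3524 and 1951, and C1qc at 950, 2987, 2048 and 1087. DKO replicate 2 was the highest library for each and DKO replicate 1 or TKO replicate 2 the lowest. The 3 genes rose and fell together from cell to cell: over the 57 macrophages Spearman's rho was 0.89 for C1qa with C1qb, 0.92 for C1qa with C1qc and 0.91 for C1qb with C1qc, and 0.76 to 0.96 within single libraries. These cells share the C1q minimum and differ in depth, so no test was made. Macrophages held 76.9% of all C1qa UMIs, 72.1% of C1qb and 75.6% of C1qc, and cells that met several classes' minimums held most of the rest (21.8%, 25.5% and 22.7%).

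Outside the class the complement genes were close to 0. C1qc had 0 UMIs in the monocytes of both DKO libraries, which allows up to 17.6% and 15.0% of cells with a UMI (3 UMIs over 17 and 20 cells). In the TKO libraries it had 8 and 10 UMIs in monocytes, a library's largest monocyte holding 50% and 60% of them, and C1qb had 15 and 13 against 1 and 1 in DKO. The cells nearest the minimum were 4 monocytes with 5 to 14 C1q UMIs, of which any with 10 or more fell short on the other macrophage markers, and 5 macrophages with 10 to 18. They had 50 to 280 and 1 to 392 Apoe UMIs. In neutrophils, dendritic cells and non-immune cells each C1q gene stood at 0 to 6.72 CPM, the range of lymphoid and mast cells being 0 to 5.23.

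Apoe was highest in macrophages, next in monocytes and low elsewhere. It stood at 15820, 19390, 12940 and 6003 CPM in macrophages and at 6692, 4546, 2742 and 2702 CPM in monocytes. Within each library macrophages were above monocytes, although TKO replicate 2 macrophages lay below DKO replicate 1 monocytes. With library as a block, Apoe was higher in macrophages by 1.74 ± 0.22 on the log2 scale (SE, 4 libraries, edgeR adjusted p = 0.0159). Without TKO replicate 1 the difference was 1.56 and missed the threshold (edgeR adjusted p = 0.076). Macrophages held 55.6% of all Apoe UMIs, monocytes 16.6% and cells that met several classes' minimums 17.6%.

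Elsewhere Apoe stood at 187, 21.6, 46.8 and 25.5 CPM in dendritic cells, 147, 180, 119 and 115 in neutrophils, and 225, 79.1, 142 and 486 in non-immune cells. One cell gave 86.2% of the dendritic UMIs of DKO replicate 1. Within the non-immune class fibroblasts were at 304, 292, 240 and 489 CPM and epithelial cells at 204, 18.4, 22.0 and 35.1, with 92.9% of the epithelial UMIs of DKO replicate 1 in 1 cell. Macrophages were higher than dendritic cells by 8.01 ± 0.78 log2 units (edgeR adjusted p = 0.00566), than neutrophils by 6.28 ± 0.30 (4.06e-07) and than non-immune cells by 6.21 ± 0.72 (0.000169), in 4 of 4 libraries each. A UMI of Apoe was seen in 33.4 to 35.4% of neutrophils and in 27.5 to 30.2% of lymphoid and mast cells, whose median depths were 6304 to 7269 and 11248 to 13226 UMIs. After thinning the shares were 13.5 to 15.8% and 6.04 to 7.55%.

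Trem2, the receptor, followed the same order at lower counts. Macrophages gave 155, 76, 153 and 26 UMIs (280, 199, 224 and 118 CPM) and monocytes 72, 26, 44 and 28 UMIs (183, 65.5, 53.3 and 66.4 CPM). Each library's macrophages were above its monocytes, and DKO replicate 1 was the highest library of both classes. The difference was 1.34 ± 0.28 log2 units and just missed the threshold (edgeR adjusted p = 0.0503). It passed when macrophages were defined without any of the 10 genes (2.04, adjusted p = 0.00488) and with DESeq2 (1.35, adjusted p = 0.0118).

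Dendritic cells had 0 Trem2 UMIs in 3 libraries, which allows up to 9.38%, 6.82% and 6.0% of cells with a UMI, and 6 UMIs in TKO replicate 1. Macrophages were higher than neutrophils by 5.09 ± 0.30 log2 units (edgeR adjusted p = 1.03e-06) and than non-immune cells by 4.54 ± 0.49 (0.000112). The dendritic difference of 7.61 ± 0.53 (edgeR adjusted p = 3.09e-05) rests on those 6 UMIs on the dendritic side. Of the non-immune class's 25, 22, 81 and 1 Trem2 UMIs, fibroblasts held 16, 9, 81 and 0, with 61.7 to 66.7% of them in 1 cell in each library that had any. Epithelial cells held 0, 3, 0 and 0, and 17 cells that met the minimums of several non-immune groups held 9, 10, 0 and 1.

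Spp1 differed between libraries more than between some classes. In macrophages it gave 1686, 233, 3238 and 21 UMIs (3040, 611, 4746 and 95.5 CPM), and 1 cell of each library held 41.7%, 26.6%, 70.9% and 95.2% of them. A UMI was seen in 13 of 14, 9 of 12, 10 of 21 and 2 of 10 macrophages. Monocytes were at 3096, 15.1, 53.3 and 35.6 CPM, and 79.2% of the DKO replicate 1 UMIs came from 1 monocyte. Macrophages and monocytes differed by 3.30 ± 1.53 log2 units, which did not pass (edgeR adjusted p = 0.317) but did without DKO replicate 1 (4.93, adjusted p = 0.0461). The difference from dendritic cells, 5.84 ± 1.91, did not pass either (edgeR adjusted p = 0.14), but did without TKO replicate 2 (7.19, adjusted p = 0.00165) and with DESeq2 (5.99, adjusted p = 9.86e-06). Against non-immune cells, at 13.2, 42.6, 26.4 and 13.5 CPM, macrophages were higher by 5.80 ± 0.94 (edgeR adjusted p = 0.00113), a call lost with no filter on low counts (5.75, adjusted p = 0.104).

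Neutrophils carried Spp1 in every library and held 25.1%, 62.5%, 36.0% and 52.1% of a library's UMIs, against 38.6%, 10.7%, 52.1% and 0.98% in macrophages. Monocytes held 27.9% in DKO replicate 1, and cells that met no minimum held 36.4% in TKO replicate 2. Neutrophils gave 1098, 1362, 2234 and 1113 UMIs (464, 731, 674 and 717 CPM), and no neutrophil held more than 12.5% of a library's UMIs. The 4 libraries lay within a narrow range, unlike the macrophages. The macrophage minus neutrophil difference was 0.64 ± 1.35 log2 units (edgeR adjusted p = 0.726), with neutrophils above macrophages in DKO replicate 2 and TKO replicate 2 and below them in the other libraries. Its sign turned without DKO replicate 1 (-0.26) and without TKO replicate 1 (-0.34).

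A Spp1 UMI was seen in 36.1%, 41.0%, 35.4% and 38.9% of neutrophils (exact Clopper-Pearson 95% intervals from 30.7 to 47.2%, which cover counting error only). In lymphoid and mast cells, with a higher median depth, the shares were 14.0%, 17.9%, 16.1% and 13.8% (intervals from 8.06 to 23.8%) and the levels 12.1 to 27.6 CPM. After thinning to 2000 UMIs the shares were 22.2 to 27.0% of neutrophils and 2.80 to 3.96% of lymphoid and mast cells. Spp1 UMIs per Apoe UMI were 3.15, 4.07, 5.68 and 6.22 in neutrophils, 0.16, 0.91, 0.78 and 0.80 in lymphoid and mast cells and 0.19, 0.03, 0.37 and 0.02 in macrophages. The ratio in neutrophils was thus above that of each library's other 2 classes. Neutrophils with at least 2 Spp1 UMIs had a UMI of Apoe in 30.4 to 35.6% of cells, and those with 0 Spp1 UMIs in 31.2 to 37.0%.

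**Figure D2:**
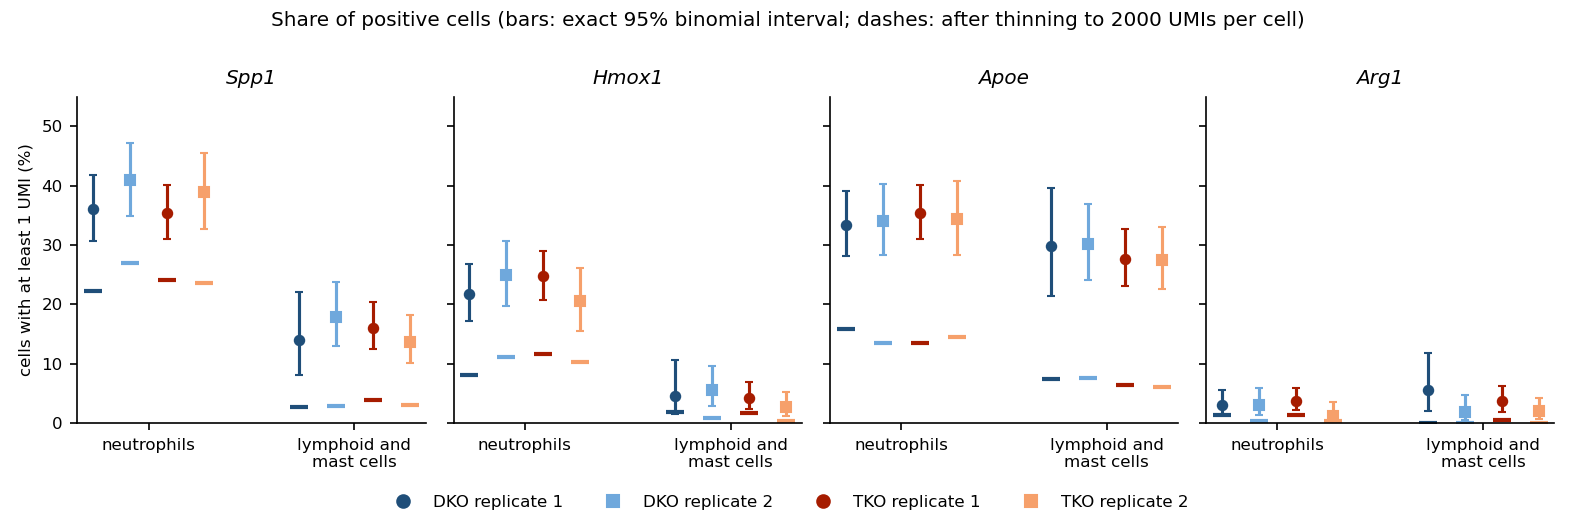
Percent of cells with at least 1 UMI of Spp1, Hmox1, Apoe and Arg1 in neutrophils and in lymphoid and mast cells, 1 point per library with its exact 95% binomial interval, and a dash for the share after thinning to 2000 UMIs. Spp1 and Hmox1 intervals of the classes do not overlap within any library, Apoe intervals do, and Arg1 is at 1.25 to 5.61% in both.

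Gpnmb counts in macrophages came from few cells. Non-immune cells held 20.45% of all Gpnmb UMIs and macrophages 17.08%. Cells that met no minimum held 19.87% and cells that met several classes' minimums 18.7%. Macrophages gave 67, 142, 22 and 2 UMIs (121, 372, 32.2 and 9.10 CPM) from 3 of 14, 3 of 12, 1 of 21 and 2 of 10 cells. In the first 3 libraries 1 cell held 94.0%, 78.9% and 100% of them. Fibroblasts had a UMI of Gpnmb in 62.5%, 47.6%, 41.2% and 54.5% of cells, at 54.1, 41.8, 28.5 and 46.9 CPM. After thinning the shares were 12.5%, 4.76%, 8.82% and 18.2% of fibroblasts and 7.14%, 16.7%, 4.76% and 10% of macrophages, with no common order over the libraries. Lymphoid and mast cells had a UMI in 1.01 to 3.77% of cells before thinning. Macrophages and non-immune cells differed by 1.71 ± 0.71 log2 units, which did not pass (edgeR adjusted p = 0.0906). It passed without TKO replicate 2 (2.35, adjusted p = 0.0396) and was -0.085 without the 1 macrophage per library that held most UMIs of the 10 genes. Against monocytes (1.86 ± 0.85, edgeR adjusted p = 0.296) and neutrophils (2.18 ± 1.25, adjusted p = 0.209) it did not pass, and it was too sparse to be tested against dendritic cells.

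Arg1 UMIs lay mainly in epithelial cells and in some of the macrophages. Macrophages gave 1193, 92, 305 and 41 UMIs (2151, 241, 447 and 187 CPM), from 10 of 14, 2 of 12, 7 of 21 and 2 of 10 cells. Outside DKO replicate 1, where the top cell held 36.8%, 1 cell held 88.5 to 97.8% of the UMIs. Monocytes were at 585, 25.2, 83.5 and 2.37 CPM. Macrophages were higher by 2.84 ± 0.48 log2 units (edgeR adjusted p = 0.0436), a call that was lost without DKO replicate 2 (2.68, adjusted p = 0.195), without TKO replicate 1 (3.08, adjusted p = 0.201) and without the top macrophage of each library (1.65, adjusted p = 0.28). Neutrophils and dendritic cells were at 0.77 to 5.43 CPM. Macrophages were higher by 6.81 ± 0.61 (edgeR adjusted p = 0.000103) and 7.85 ± 0.56 (adjusted p = 0.000103) against them. The dendritic difference rests on 1, 1, 10 and 2 dendritic UMIs, so that Arg1 entered the test through the macrophages.

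Epithelial cells had Arg1 in 64.3%, 57.7%, 54.5% and 57.1% of cells, at 517, 295, 114 and 190 CPM, and no cell held over 49.2% of a library's UMIs. Cells with at least as many luminal as basal keratin UMIs carried most of it: 491, 853, 109 and 65 UMIs, against 42, 14 and 0 in cells with more basal keratins (3, 10 and 3 cells, and none in TKO replicate 2). Fibroblasts were at 6.70 to 39.4 CPM. Non-immune cells held 23.7%, 81.3%, 21.9% and 44.4% of a library's Arg1 UMIs and macrophages 50.4%, 8.17%, 34.3% and 24.0%. Cells that met several classes' minimums held 14.4%, 7.90%, 26.0% and 6.43%. The macrophages' difference from non-immune cells was 1.95 ± 0.45 log2 units (edgeR adjusted p = 0.00798), and the call was lost without the top macrophages (0.59, adjusted p = 0.556) and with no filter on low counts (1.91, adjusted p = 0.134).

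Mrc1 was shared by macrophages, monocytes and dendritic cells. It stood at 263, 131, 51.3 and 182 CPM in macrophages, 76.2, 47.8, 70.2 and 83.0 in monocytes and 110, 21.6, 57.8 and 50.9 in dendritic cells. TKO replicate 1 was the library in which the macrophages were the lowest of the 3 classes. Neither the difference from monocytes (1.03 ± 0.37, edgeR adjusted p = 0.179) nor that from dendritic cells (1.39 ± 0.41, adjusted p = 0.0508) passed, although DESeq2 called the second (1.42, adjusted p = 0.00956), as did edgeR without TKO replicate 1 (1.90, adjusted p = 0.00287). Neutrophils (1.07 to 1.93 CPM) and non-immune cells (2.84 to 6.74 CPM) were lower by 6.38 ± 0.37 and 4.92 ± 0.42 log2 units (edgeR adjusted p = 1.03e-06 and 2.96e-05). Neutrophils had 12 Mrc1 UMIs in all, so the gene entered that test through the macrophages. Dendritic cells held 28.3%, 16.2%, 34.5% and 42.2% of a library's Mrc1 UMIs and macrophages 42.2%, 28.9%, 9.59% and 22.2%. These shares also depend on cell numbers, which were 32, 44, 77 and 50 dendritic cells and 14, 12, 21 and 10 macrophages. In CPM macrophages were above dendritic cells in every library but TKO replicate 1. In DKO replicate 2 that order rests mainly on 1 macrophage with 45 Mrc1 UMIs, as no other there had more than 2. The same cell held the 913 neutrophil marker UMIs given above. In DKO replicate 1 the top macrophage had 82 Mrc1 UMIs and the next 22.

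Hmox1 was called higher in macrophages than in dendritic cells, but not than in the other 3 classes. It stood at 32.5, 81.2, 68.9 and 45.5 CPM in macrophages, 119, 98.2, 30.3 and 56.9 in monocytes, 58.3, 103, 85.1 and 52.9 in neutrophils, 40.6, 68.8, 45.0 and 89.6 in non-immune cells and 2.29 to 7.71 in dendritic cells. Macrophages were higher than dendritic cells by 3.82 ± 0.38 log2 units (edgeR adjusted p = 7.55e-05), a difference that rests on 3, 10, 5 and 6 dendritic UMIs. Neutrophils were above macrophages in 4 of 4 libraries, by 0.64 ± 0.23 (a macrophage change of -0.64, edgeR adjusted p = 0.0341). That call was lost with DESeq2, without DKO replicate 1, DKO replicate 2 or TKO replicate 1 (edgeR adjusted p = 0.0962, 0.0723 and 0.0827), and when macrophages were defined without the 10 genes (-0.20, adjusted p = 0.547). The differences from monocytes (-0.23 ± 0.46) and non-immune cells (0.07 ± 0.30) did not pass (edgeR adjusted p = 0.822 and 0.892).

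Shares of Hmox1-positive cells ran the other way, with 50 to 83.3% of the deep macrophages and 20.5 to 24.9% of the shallow neutrophils positive. After thinning they were 4.76 to 20% and 8.08 to 11.7%, so no order is read from them. Lymphoid and mast cells were at 2.69 to 5.66% before thinning and 0.34 to 1.87% after it. Neutrophils held 37.3%, 27.6%, 45.05% and 20.8% of a library's Hmox1 UMIs, non-immune cells 23.2%, 42.4%, 20.45% and 23.5%, and macrophages 2.53 to 7.51%.

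**Figure D3:**
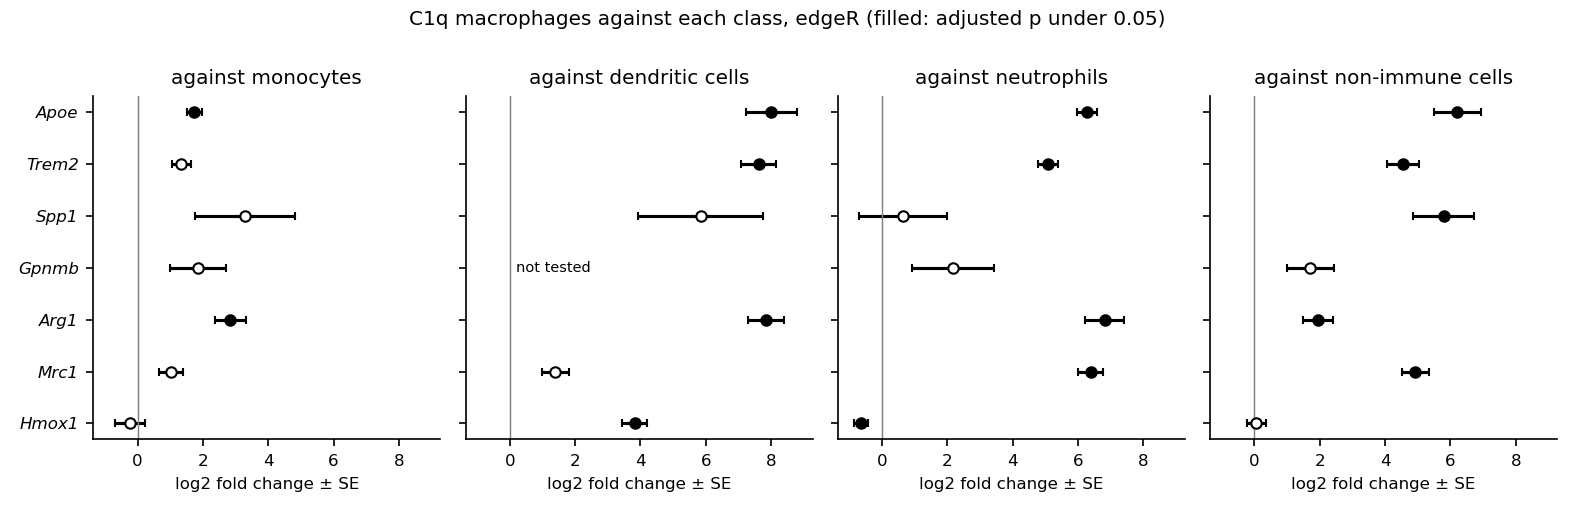
Log2 fold change (± SE) of 7 genes in C1q macrophages against each other class, from edgeR with library as a block, with filled points for adjusted p under 0.05. Apoe and Arg1 are filled in all 4 panels, Trem2 in all but the monocyte panel, and Mrc1 in the neutrophil and non-immune panels. The Arg1 calls against monocytes and non-immune cells were lost without the top macrophages. Spp1 against neutrophils spans 0. The panels share the same macrophage sums.

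Counted together without the C1q genes, 2 of 7 members were called higher in macrophages than in monocytes, where 1.11% of 5145 genes were called higher and 1.11% lower (2.22% in all). Their median difference was 1.74 on the log2 scale, and that of all genes tested was near 0. Against dendritic cells 4 of 6 tested members were higher (10.7% of all genes higher and 10.3% lower, 21.0% in all), against neutrophils 4 of 7 were higher and 1 lower (25.2% higher and 26.4% lower, 51.7% in all), and against non-immune cells 5 of 7 were higher (16.2% higher and 22.8% lower, 39.0% in all). Trem2, Arg1 and Hmox1 had 6, 14 and 24 UMIs in all dendritic cells and passed the filter on low counts there through the macrophages, as Mrc1 did against neutrophils, so these counts are a description and support nothing. The comparisons share the macrophage sums and are not independent. The monocyte comparison is also the one most set by single libraries: over all genes it called 114, but 1 without TKO replicate 1 and 357 without DKO replicate 1.

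Single macrophages differed widely in Spp1. At least 10 Spp1 UMIs were found in 15 of the 57: 7 of 14, 4 of 12, 3 of 21 and 1 of 10. These 15 held 5126 of the 5178 macrophage Spp1 UMIs. Arg1 was seen in 86.7% of them and in 19% of the other 42, with 1393 and 238 UMIs (1955 and 211 CPM). Pooled over libraries, Apoe was at 14268 and 14354 CPM, Trem2 at 343 and 147 and C1qa at 2671 and 3820. The pooled Apoe values hide opposite directions: 19743 against 11946 CPM in DKO replicate 1, 8879 against 30748 in DKO replicate 2, 13327 against 12783 in TKO replicate 1 and 7510 against 5694 in TKO replicate 2. Trem2 was also lower in the cells with Spp1 in DKO replicate 2 (136 against 267 CPM) and higher in the other libraries. The minimum is in UMIs and picks deep cells, with a median depth of 45029 UMIs in the 15 and 24183.5 in the other 42. Shares of positive cells are therefore not like for like. The split uses Spp1 itself and pools libraries, so it is a description with no test.

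The Arg1 difference between these cells was seen in every library: 3506 against 811 CPM in DKO replicate 1, 464 against 0 in DKO replicate 2, 1468 against 20.8 in TKO replicate 1 and 1042 against 10.96 in TKO replicate 2, the last from 1 cell with Spp1. Of the Arg1 UMIs in cells with Spp1, 1 cell gave 90 of 92 in DKO replicate 2 and 1 cell 270 of 295 in TKO replicate 1. C1qa had no such common direction, with 2310 against 1123 CPM in DKO replicate 1 and 3375 against 10493 in DKO replicate 2. Over all 57 cells Spearman's rho of Spp1 with Arg1 was 0.58 (0.33 to 0.72 within libraries), and of Arg1 with C1qb -0.38 (0.22 in DKO replicate 1 and -0.64 to -0.32 in the others). The cell with the most Spp1 (2295 UMIs) was also the deepest, with 98843 UMIs in all, and it had 270 Arg1, 50 Trem2 and 22 Gpnmb UMIs. Gpnmb reached 5 or more UMIs in 5 macrophages, whose Trem2 counts were 16 to 53 against library medians of 2 to 7. These 5 cells were deep, with 40794 to 98843 UMIs against medians of 34172, 33979 and 24443 in their libraries. Their counts are therefore not like for like. In 2 of the 5 Spp1 was at 1 UMI and Arg1 at 0.

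**Figure D4:**
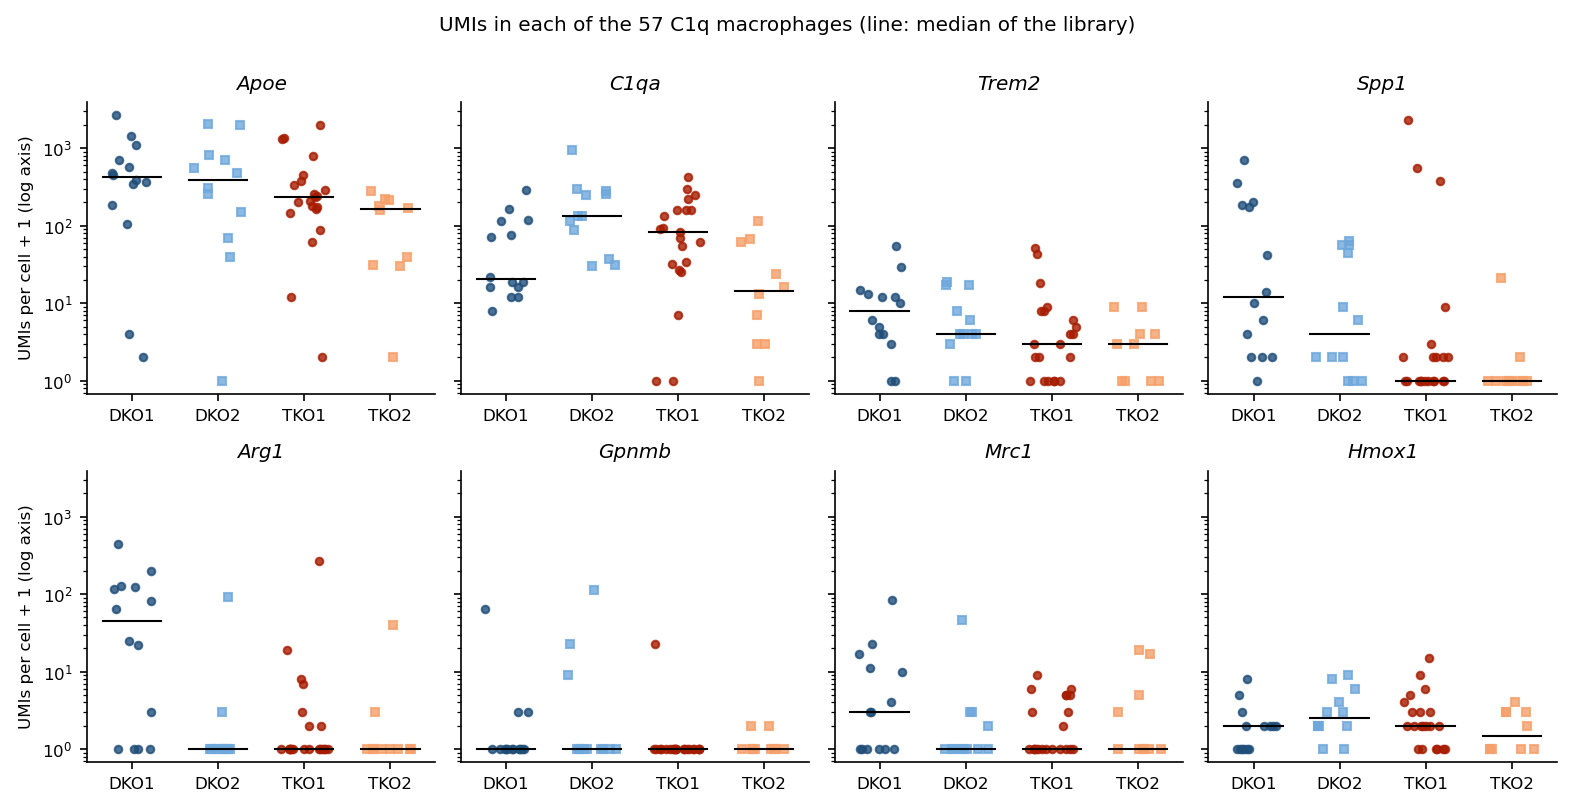
UMIs + 1 of 8 genes in each of the 57 C1q macrophages on a log axis, by library, with a line at the library's median. Apoe and C1qa are spread over all cells, whereas Spp1, Arg1 and Gpnmb rest on few cells, and the median of Arg1 is above 0 UMIs in DKO replicate 1 (44) and 0 in the other libraries.

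A further 8 cells met both the macrophage and the dendritic minimums and were left out of both classes. They had 23 to 500 C1q UMIs, a median of 50 Apoe UMIs and a median of 7 Mrc1 UMIs. Trem2 (median 1), Spp1 (median 0.5) and Arg1 (median 0) were low, apart from 1 cell with 312 of the 316 Arg1 UMIs, and Gpnmb had 0 UMIs in all 8. Whether they are doublets was not tested.

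Other genes of these pathways were read from lists, as counts. In macrophages against monocytes, 2 of 22 tested genes of the TREM2, lysosome and lipid list were higher and none lower. One of them was Grn, the progranulin gene, at 990, 584, 522 and 300 CPM in macrophages against 544, 315, 228 and 213 in monocytes (0.93 ± 0.18 log2 units, edgeR adjusted p = 0.0419). Each library's macrophages were above its monocytes, with overlap between libraries. Among 10 tested receptors of osteopontin and apolipoprotein E, Cd44, an osteopontin receptor, was lower in macrophages (876, 595, 784 and 1105 CPM against 1413, 1599, 1665 and 1775, -0.91 ± 0.17, edgeR adjusted p = 0.0364), without overlap between the classes, and none was higher. No gene was called among 8 tested of the complement list, 6 of the alternative activation list, 8 of the arginine list, 11 of the haem and iron list and 12 transcription factors. Against dendritic cells, where 10.7% of all genes were called higher and 10.3% lower, 16 genes of the TREM2, lysosome and lipid list were higher and 1 lower of 22 tested. The complement list had 4 higher and 0 lower of 8, the alternative activation list 2 and 2 of 6, the arginine list 2 and 0 of 9, the haem and iron list 9 and 0 of 12, the receptors 5 and 3 of 12 and the transcription factors 5 and 2 of 12. Against neutrophils, where 25.2% of all genes were higher and 26.4% lower, the lists in the same order had 11 higher and 4 lower of 22, 4 and 4 of 11, 4 and 1 of 7, 4 and 2 of 9, 3 and 5 of 13, 8 and 2 of 12, and 5 and 6 of 13. Against non-immune cells, where the shares were 16.2% and 22.8%, they had 15 and 0 of 21, 4 and 6 of 13, 3 and 3 of 6, 5 and 1 of 10, 8 and 1 of 13, 4 and 2 of 10, and 8 and 1 of 14.

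The genes most like each member were found over the 20 sums of 5 classes by 4 libraries (log2 CPM with a prior count of 2, 13419 genes). The sums of a library share its depth and those of a class its cell type, so the values describe class patterns and have no test. The mean of the C1q genes was closest to Lilra5 (Pearson r = 0.924), the chemokine gene Ccl12 (0.892) and Ms4a7 (0.89), one of the macrophage markers. Apoe was closest to the amino acid transporter Slc7a8 (0.955), Mfsd1 (0.942) and the scavenger receptor Stab1 (0.941), and Trem2 to Ropn1l (0.952), Apoe itself (0.934) and Stab1 (0.929). For Spp1 they were 4930430E12Rik (0.87) and the ferritin genes Fth1 (0.843) and Ftl1-ps1 (0.823), and reads of the last cannot be told apart with certainty from its parent gene. Arg1 followed Aifm2 (0.913) and Camk1 (0.909), Mrc1 followed Aif1 (0.936) and Ciao2a (0.933), and Hmox1 followed Notch1 (0.928) and Cstb (0.894). Gpnmb had the lowest match, Tex10 at 0.81.

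Between genotypes none of the 10 genes passed in any class. Members were tested 33 times over the 5 classes with edgeR, and 6 had an unadjusted p under 0.05. DESeq2 called 1 member each in macrophages (Gpnmb), monocytes (Apoe) and non-immune cells (Arg1), where it called 18, 24 and 96 genes in all. Of all genes edgeR called 0.0% in macrophages, 0.0385% in monocytes, 0.0353% in dendritic cells, 0.0114% in neutrophils and 0.00848% in non-immune cells, and 4.63%, 7.84%, 6.72%, 3.93% and 9.14% had an unadjusted p under 0.05. Fold changes are given for Arg1 in monocytes, which passed with the replicate number as a block. The others are those where CPM of the 4 libraries did not overlap between genotypes, 7 of the 33 tests. Such separation is common: it held for 34.3% of all genes in macrophages, 36.9% in monocytes, 35.8% in dendritic cells, 29.6% in neutrophils and 41.5% in non-immune cells. In all 7 both TKO libraries lay below both DKO libraries, as for 13.3%, 18.1%, 19.1%, 10.9% and 20.3% of all genes.

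Apoe was the member that separated in the most classes. Its log2 difference, TKO minus DKO, was -0.97 ± 0.39 in macrophages (17610 ± 2522 CPM in DKO and 9473 ± 4907 in TKO, SD, n = 2 each, edgeR adjusted p = 1.0). In monocytes, where the DKO libraries were at 6692 and 4546 CPM and the TKO libraries at 2742 and 2702, it was -1.07 ± 0.20 (edgeR adjusted p = 0.176). This call passed with the replicate number as a block (-1.03, edgeR adjusted p = 0.0365) and with DESeq2 (adjusted p = 0.0426). In neutrophils it was -0.55 ± 0.25 (edgeR adjusted p = 1.0). Lymphoid and mast cells, the reference class, stood at 75.3, 30.2, 29.5 and 24.3 CPM of Apoe in the 4 libraries. Other measures separated in the same way: median depth per macrophage was lower in both TKO libraries, and macrophage markers in monocytes summed to 2414, 1802, 1638 and 1444 CPM. Their part in the result was not tested.

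Hmox1 in monocytes (119, 98.2, 30.3 and 56.9 CPM) differed by -1.40 ± 0.38, which did not pass (edgeR adjusted p = 0.363). Its UMIs were 47, 39, 25 and 24, and 60.3% of DKO and 41.2% of TKO monocytes were positive on average. Gpnmb in macrophages differed by -3.41 ± 0.74 (edgeR adjusted p = 0.772), from the few cells described above, and DESeq2 called it (-3.50, adjusted p = 0.00234). The 2 counts of the TKO replicate 2 library allow no precise ratio. Arg1 in monocytes overlapped between genotypes (585, 25.2, 83.5 and 2.37 CPM) and differed by -2.68 ± 1.97 (edgeR adjusted p = 0.871), but passed with the replicate number as a block (-2.89 ± 0.30, edgeR adjusted p = 0.00493). Its UMIs were 230, 10, 69 and 1, and the libraries paired by the block share only a number. Trem2 in neutrophils differed by -1.30 ± 0.55 (edgeR adjusted p = 1.0), from 25, 9, 11 and 5 UMIs.

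Arg1 in non-immune cells (265, 214, 68.6 and 73.2 CPM) differed by -1.78 ± 0.23 log2 units (edgeR adjusted p = 0.262, DESeq2 adjusted p = 2.91e-05). The makeup of the class moved with it, since 28 of 49 and 71 of 98 of its cells were epithelial in DKO and 33 of 72 and 14 of 32 in TKO. Epithelial markers summed to 6682, 9039, 4237 and 5080 CPM. The part of makeup in the result was not tested. Arg1 stood at 517, 295, 114 and 190 CPM in epithelial cells. In the luminal keratin cells, which held most of the same UMIs, it stood at 542, 350, 123 and 190 CPM. CPM of the genotypes did not overlap for 41.5% of all genes in the non-immune class, and the share within epithelial cells was not counted. Median depth of the luminal cells was 22842, 20520, 11652 and 7420.5 UMIs, lower in both TKO libraries, and its part in the result was not tested. Shares of Arg1-positive epithelial cells had means of 61.02% in DKO and 55.8% in TKO, and after thinning they were 32.1%, 28.6%, 18.2% and 7.69%, without overlap. The exact permutation p was 0.33 for both, the smallest that 2 against 2 libraries allow. The recombined alleles are meant to lie in these cells.

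**Figure D5:**
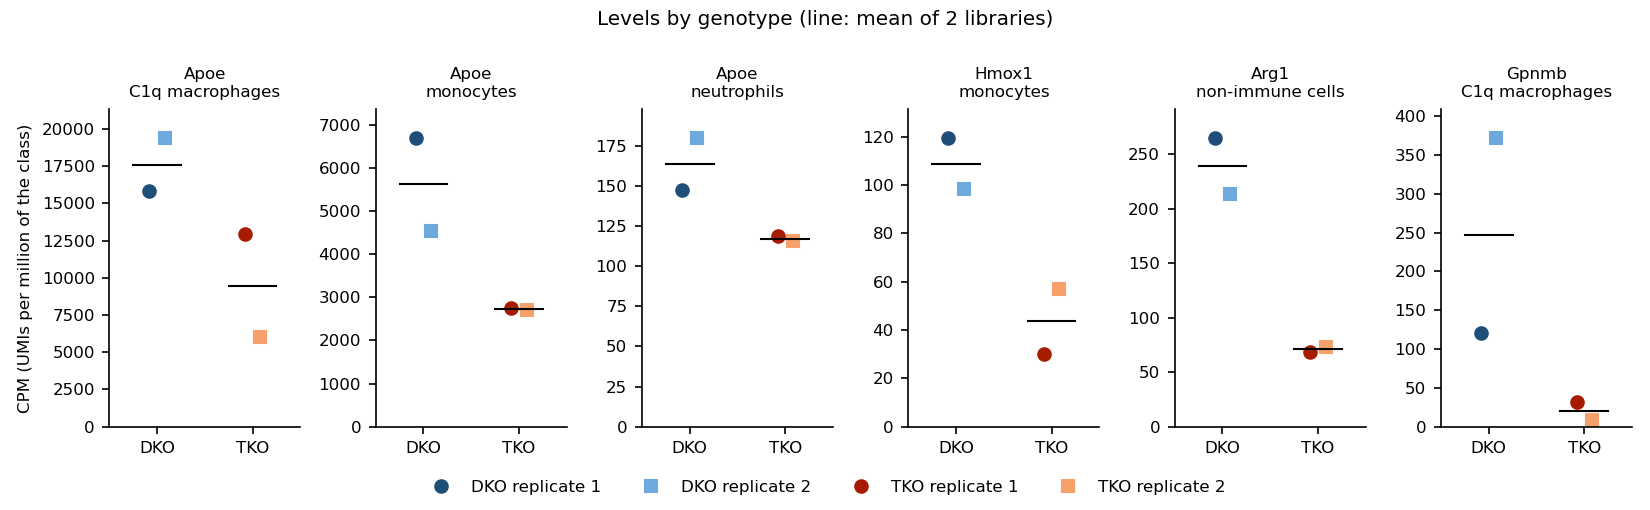
CPM of 6 of the 7 gene and class pairs in which both TKO libraries lay below both DKO libraries, with 1 point per library and a line at the mean of each genotype. None passed in the edgeR test, and the axes start at 0 and differ between panels.

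Spp1 showed no common direction by genotype, at 3040, 611, 4746 and 95.5 CPM in macrophages. The share of Spp1-positive macrophages was 92.9% and 75.0% in DKO and 47.6% and 20% in TKO, with means of 83.9% and 33.8%. The exact two-sided permutation test gave p = 0.33. After thinning the shares were 57.1%, 41.7%, 14.3% and 10%, which did not overlap either (exact p = 0.33). Median depth was lower in both TKO libraries, and CPM did not separate. Over the 50 pairs of member and class the shares of positive cells did not overlap between genotypes in 19, 12 with TKO below and 7 with TKO above. Of the 33 pairs that could be tested 13 did so, and of all tested genes in these classes 34.1%. The other 17 pairs were too sparse to be tested, and 6 of them did not overlap. A test of whether genotype effects differ between macrophages and each other class gave 39 interaction terms for the members, and none passed (smallest edgeR adjusted p = 0.624).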

How the data were processed

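UMI matrices of 4 libraries were used. The deposited values are counts of UMIs per gene and cell, whole and not normalized, per the file headers and the values. Reads were processed with Cell Ranger 7.0.0 and STAR on mm10, per the submitters' processing notes. The 6 hashtag features were left out. Cells were kept from 200 detected genes upward if mitochondrial UMIs made up no more than 20%, and no doublet caller was run.

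The genes, marker lists, pathway lists and tests were chosen with earlier results of these data known, and marker minimums were set after seeing the data. Minimum UMI sums were 10 for C1q and 10 for other macrophage markers, 20 for monocyte markers, 10 for dendritic markers with 50 for MHC class II genes (or 10 for Siglech), 50 for neutrophil markers, 20 for epithelial, 50 for fibroblast and 20 for vascular markers and 10 for lymphoid and mast cell markers. Monocyte sums left out the listed markers Plac8, Vcan and Fn1. Macrophage and dendritic minimums took precedence over those of neutrophils and monocytes, and neutrophils over monocytes where their marker sum was the larger. Cells meeting other combinations of classes were left out.

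Counts were summed per class and library and tested with edgeR 4.0.16 (TMM, filterByExpr, robust quasi-likelihood test, Benjamini-Hochberg over all genes, threshold 0.05) in R 4.3.3, with library as a block between classes. DESeq2 1.42.0 was an alternative. Levels are CPM of the class sum. All 10 genes are named, with the 3 most like each (part of them printed) and up to 4 called genes per list in macrophages against monocytes. Some items are not reported here. Genotype folds of the main fit were printed only where CPM did not overlap, a choice made after seeing the values. Arg1 in monocytes is an exception, printed because it passed with the replicate number as a block. A 3′ UMI counts 1 molecule whatever the gene's length, and levels of different genes are not compared. Positions are those of GENCODE M21 (mm10).

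On simulated data 67% of genes changed 4-fold and 99.5% changed 8-fold were recovered for genotype in macrophages (5794 genes, 5 and 15 unchanged genes called), and 90.5% and 100% in neutrophils (8800 genes, 2 and 14). For macrophages against monocytes (5145 genes) these shares were 99% and 100% (7 and 7). Each simulated gene had the average spread of genes at its level, and only increases were simulated. Spp1, Gpnmb and Arg1 in macrophages, and Mrc1 in those of DKO replicate 2, rest on few cells. These shares therefore do not tell what change in these genes would be recovered.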

Additional observations from a re-analysis of the deposited data

How the results depend on the processing

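Alternatives were DESeq2, RLE size factors, no filter on low counts, leaving out each library, macrophages defined without the 10 genes, doubled marker minimums, a stricter cell filter, the replicate number as a block and, chosen after seeing the data, leaving out the macrophage of each library with the most UMIs of the 10 genes. Of the alternative counts of called members or separated shares, 83 were within 1.5 times of the main count. The others are given here, apart from counts by genotype with 1 library left out. By genotype, where 0 members passed, DESeq2 called 1 in macrophages, monocytes and non-immune cells each. Over all genes it called 18 of 5794, 24 of 5193 and 96 of 11788 there. With no filter 2, 3, 1 and 1 members were called in macrophages, monocytes, dendritic and non-immune cells. Genes called in all were then 96 of 14639, 142 of 14735, 204 of 17096 and 569 of 20907. Leaving out 1 library gave 0 to 2 in macrophages, 0 to 6 in monocytes (without DKO replicate 2 Spp1, Gpnmb, Apoe, Hmox1, Arg1 and Trem2, all lower in TKO) and 0 to 1 in non-immune cells, where the lone library of a genotype is assumed to vary like the others. The replicate block called 2 members in monocytes, Apoe (-1.03, edgeR adjusted p = 0.0365) and Arg1 (-2.89, adjusted p = 0.00493), and changed no other count of members. Over all genes it moved calls from 2 to 54 in monocytes and from 1 to 35 in neutrophils. Same-numbered libraries deviated together with correlations of -0.09 to 0.35 over genes, and with 2 pairs the libraries share only a number. Against monocytes 4 members passed with no filter, 0 to 4 on leaving out 1 library and 1 without the top macrophages. Over all genes 799 of 16299 passed with no filter, 1 to 357 on leaving out 1 library and 53 of 5131 without the top macrophages. Against non-immune cells 3 members passed with no filter, beside 4748 of 21298 genes in all. Separated shares numbered 31 to 34 of 50 with 1 library left out, since fewer libraries overlap less often. Signs turned for Hmox1 against monocytes (-0.775 to 0.317 on leaving out 1 library, 0.459 with macrophages defined without the 10 genes, 0.271 with doubled minimums) and against non-immune cells (-0.187 to 0.361 on leaving out 1 library, -0.114 without the top macrophages), for Spp1 against neutrophils (-0.34 to 1.618 on leaving out 1 library) and for Gpnmb against non-immune cells (-0.085 without the top macrophages). The causes were not tested. Between 10 and 21 macrophages per library limit what can be seen, and Gpnmb, Arg1 and Spp1 counts there rest on few cells. Most Mrc1 UMIs of the DKO replicate 2 macrophages came from 1 cell.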
